A study of Mus musculus with 6 samples.

Results

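The insulin-like growth factor (IGF) genes measured here are the ligand genes Igf1 and Igf2, the receptor genes Igf1r and Igf2r, and the genes Igfbp2 to Igfbp7 of the secreted IGF binding proteins. These 10 of 18194 genes were chosen by name, and every probe set annotated with exactly 1 of the symbols was taken, 28 of 45101 in all. For a gene with several probe sets, the main one is that whose log2 intensity is highest on average over the arrays. Cells were sorted from left ventricles of Black Swiss males of 8 to 10 weeks, with 3 mice per surgery. The mice had undergone TAC, transverse aortic constriction, in which a narrowed aorta loads the ventricle with pressure, or a sham operation 1 week earlier. The 6 groups are fibroblasts traced by Tie2cre after TAC, untraced fibroblasts after TAC, endothelial cells after TAC, and the same 3 populations after sham surgery. Each group has 1 array. In Tie2cre mice the Tek promoter, active in endothelial cells and also in blood lineages, drives a Cre recombinase, so tracing marks cells with a past or present activity of that promoter and not a single cell type. The labels do not say whether mice were pooled or whether the 3 populations of a surgery came from the same hearts.

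IGF1 and IGF2 are small secreted growth factors that signal for growth and survival mainly through the IGF1 receptor, a receptor tyrosine kinase. The IGF2 receptor has no such kinase activity and carries IGF2 to the lysosome for degradation. The binding proteins hold most extracellular IGF, and proteases that cut them set it free. In the heart, fibroblasts and macrophages are known sources of IGF1, and cardiac myocytes respond to it.

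The sorted populations carried the markers of their labels, with an exception after TAC. The summed intensity of 11 endothelial markers was 6166 to 9046 on the fibroblast arrays and 95280 (TAC) and 113956 (sham) on the endothelial arrays. Of these, Tek and Eng stood high on the fibroblast arrays too (log2 10.70 to 11.91 and 11.45 to 11.99). Tek was 2.19-fold and Eng 3.34-fold lower in fibroblasts, and the other endothelial markers 41.3-fold to 127-fold. The summed intensity of 11 fibroblast markers was 116288 to 131526 on the fibroblast arrays, but it was 52971 on the endothelial TAC array against 3620 on the endothelial sham array. Of these 11 markers 11 were at least 2-fold higher in endothelial cells after TAC than after sham surgery, with a median log2 difference of 4.39. Cardiomyocyte markers also ran with cell type, with sums of 4564 (TAC) and 8468 (sham) on the endothelial arrays and of 1182 to 1737 on the fibroblast arrays. Mural cell markers were split: 6 of 9 were lower and 3 higher in fibroblasts, with Rgs5 9.01-fold lower and Pdgfrb 4.36-fold higher. The part of these other cells in the differences between cell types was not tested. The bioB hybridisation spike-in averaged 2.15 log2 units higher on the endothelial than on the fibroblast arrays, while the cre spike-in averaged 0.24 higher. The array of untraced TAC fibroblasts stood apart, with 18S RNA at log2 12.04 where the rest lay at 14.11 to 14.64. Its Gapdh probe sets differed by 2.10 log2 units between the 3′ and 5′ ends, against 1.12 to 1.36 elsewhere. In bulk arrays, fewer cells of a type and less RNA per cell cannot be told apart.

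On their main probe sets, Igf1, Igfbp3 and Igfbp6 were the members at least 2-fold apart by surgery in some population, so the 250 bases before their annotated starts are shown, 5′ to 3′ on the strand of the gene (RefSeq, GRCm38.p6). The windows are chr10:87860861-87861110 (plus strand), chr11:7213924-7214173 (minus strand) and chr15:102143936-102144185 (plus strand). Capitals mark matches, on either strand, to any of 6 short motifs, none of which overlaps another in these windows. The motifs are the TATA box TATAAA, the Sp1-type element GGGCGG, the NF-Y element CCAAT, the AP-1-like element TGANTCA, the forkhead element GTAAACA and the TEAD element CATTCC. In TGANTCA the N stands for any base, and the Igf1 match reads TGAATCA.
Igf1: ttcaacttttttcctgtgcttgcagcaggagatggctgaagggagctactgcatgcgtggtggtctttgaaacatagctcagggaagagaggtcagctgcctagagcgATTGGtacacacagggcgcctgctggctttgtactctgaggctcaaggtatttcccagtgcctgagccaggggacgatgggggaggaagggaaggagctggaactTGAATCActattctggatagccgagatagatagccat
Igfbp3: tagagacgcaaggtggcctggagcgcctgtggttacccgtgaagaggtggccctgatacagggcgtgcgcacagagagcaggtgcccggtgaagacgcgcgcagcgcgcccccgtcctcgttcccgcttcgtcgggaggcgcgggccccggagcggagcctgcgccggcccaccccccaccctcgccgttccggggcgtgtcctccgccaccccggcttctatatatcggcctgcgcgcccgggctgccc
Igfbp6: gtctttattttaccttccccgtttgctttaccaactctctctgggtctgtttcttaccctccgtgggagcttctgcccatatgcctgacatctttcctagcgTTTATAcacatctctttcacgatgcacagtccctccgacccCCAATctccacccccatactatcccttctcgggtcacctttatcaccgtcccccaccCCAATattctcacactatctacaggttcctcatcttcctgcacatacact
The Igf1 window held CCAAT and TGANTCA, whose leftmost bases lie 142 and 37 bases before the start, and these motifs occur in 33.8% and 6.75% of all 32851 such windows. The Igfbp6 window held CCAAT at 107 and 50 bases and TATAAA, which 12.4% of windows hold, at 148 bases before the start. The Igfbp3 window held none of the 6 motifs, which says only that these letters are not in it. The windows differ in base composition: 73.2% of bases are G or C for Igfbp3, 52.8% for Igf1 and 49.6% for Igfbp6, beside a median of 52.4% over all windows. Of the other members, Igfbp4 held TATAAA 28 bases before its start, and GGGCGG stood at 4 places in the window of Igfbp7, at 3 in Igf2r and in 1 of the 2 windows of Igfbp2, at 2 in Igf1r, and at 2 and 1 places in a pair of the 4 windows of Igf2. GGGCGG occurs in 32.7% of windows.

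**Figure D1:**
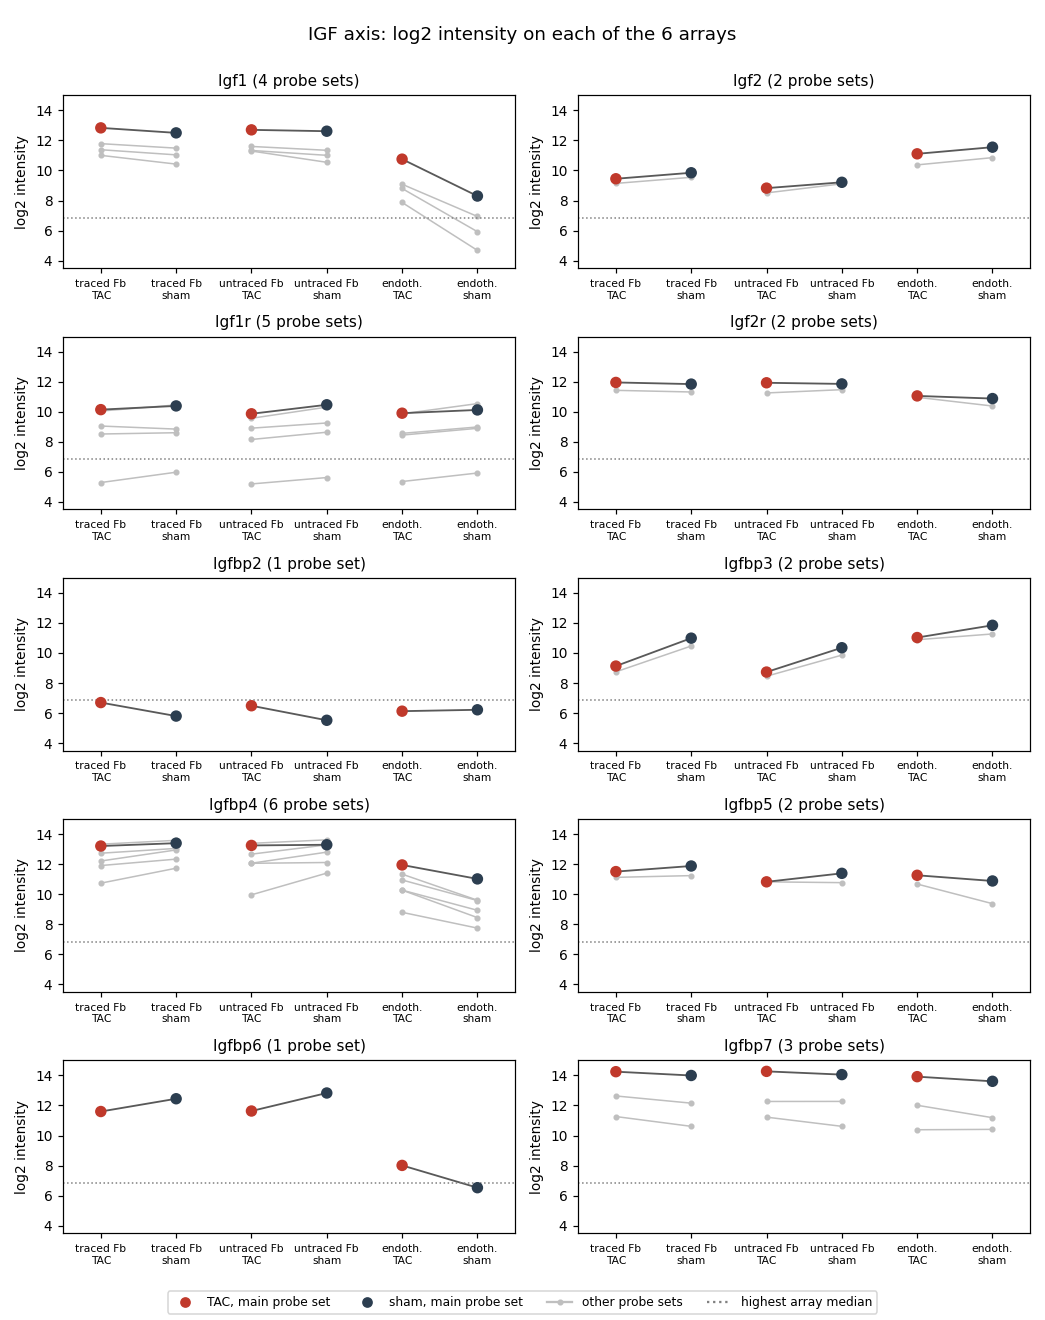
Log2 intensity (y axis) of each IGF gene on each of the 6 arrays (x axis, Fb for fibroblasts), with TAC arrays left of sham arrays. Large points are the main probe set, small grey points the other probe sets of the gene, lines join the arrays of 1 population, and the dotted line is the highest array median (6.85). Igf1, Igfbp4 and Igfbp6 stand lower on both endothelial arrays than on every fibroblast array, Igf2 and Igfbp3 stand higher there, and Igfbp2 lies below the line throughout.

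The first comparison asks which cells carry the IGF genes. Fibroblasts had more Igfbp6 and Igfbp4 RNA and less Igf2 RNA than endothelial cells. The gap of Igfbp6 was 28.9-fold, with the endothelial sham array below its median, so that this fold rests in part on a level not detected there. Igf1 had an 8.78-fold higher mean in fibroblasts and did not pass the test. The test was limma on log2 intensity, where the mean of the traced and untraced arrays of a surgery made 1 value and each cell type had 2. Genes above the median of at least 1 array entered it, and a call needed a Benjamini-Hochberg adjusted p under 0.05 and a 2-fold difference. Of 9 members tested 2 were called higher in fibroblasts, beside 11.5% of 12257 genes, and 1 lower, beside 6.5%. Of the 11 fibroblast markers, which the endothelial TAC array also carried, 3 passed the same test in spite of a median difference of 3.34. By the plain count of genes at least 2-fold apart at both surgeries, 3 members were higher (Igf1, Igfbp4 and Igfbp6), beside 14.8% of genes, and 2 lower (Igf2 and Igfbp3), beside 7.34%. The median difference of the 9 members was 0.38, against 0.22 over all genes. Igfbp2, the tenth member, was below the median of each of the 6 arrays and was not tested.

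Among the ligands, Igf1 stood at 12.83 (traced) and 12.70 (untraced) on the TAC fibroblast arrays and at 12.50 and 12.61 on the sham fibroblast arrays. On the endothelial arrays it stood at 10.75 after TAC and 8.30 after sham surgery. The cell types do not overlap, and the endothelial arrays differ from each other by more than the fibroblast arrays do. The mean difference was 3.13 (SE 0.840, n = 2 values in each cell type, limma adjusted p = 0.0690). It was 2.01 between the TAC arrays and 4.26 between the sham arrays. In a limma fit over all detected probe sets, 3 of the 4 Igf1 probe sets passed, with adjusted p-values of 0.0421 to 0.0591 over the 4 and differences of 3.13 to 4.54. Igf1 passed when the endothelial TAC array was left out (4.36, limma adjusted p = 0.00969), when the endothelial sham array was left out (1.91, limma adjusted p = 0.0410) and with surgery as a block (limma adjusted p = 0.00916).

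Igf2 ran the other way, with 9.45 and 8.82 on the traced and untraced TAC fibroblast arrays, 9.85 and 9.21 on the sham fibroblast arrays, and 11.11 (TAC) and 11.55 (sham) on the endothelial arrays. Its difference was -1.99 (SE 0.290, limma adjusted p = 0.0182), a 3.98-fold lower level in fibroblasts, and it was nearly the same at both surgeries (-1.97 after TAC and -2.02 after sham). The second Igf2 probe set gave -1.54 (limma adjusted p = 0.0333 over all probe sets). Without the endothelial sham array the call was lost (-1.77, limma adjusted p = 0.0583).

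The receptors differed less between the cell types than the ligands. Igf2r, the clearance receptor, ranged from 11.84 to 11.95 in fibroblasts and was 11.05 (TAC) and 10.87 (sham) in endothelial cells. Its difference of 0.93 (SE 0.224, limma adjusted p = 0.0550) did not reach the threshold, although the cell types do not overlap. The signalling receptor gene Igf1r ranged from 9.86 to 10.46 in fibroblasts and was 9.90 (TAC) and 10.12 (sham) in endothelial cells, so its ranges overlap. Its difference was 0.20 (limma adjusted p = 0.621), and its 5 probe sets split, 2 higher and 3 lower in fibroblasts (-0.30 to 0.34).

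Among the binding proteins, Igfbp6, which binds IGF2 in preference to IGF1, stood at 11.59 and 11.63 on the traced and untraced TAC fibroblast arrays and at 12.44 and 12.83 on the sham fibroblast arrays. Its endothelial levels were 8.01 after TAC and 6.53 after sham surgery, and the sham value lies below the median of its array. The difference was 4.85 (SE 0.632, limma adjusted p = 0.0149), and 58 of 12257 genes had a larger one in favour of fibroblasts. It was called under each of the 15 settings run, with differences of 4.11 to 5.59.

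Igfbp4, a binding protein that the protease PAPP-A cuts, ranged from 13.21 to 13.40 in fibroblasts and was 11.95 (TAC) and 11.02 (sham) in endothelial cells. Its difference was 1.80 (SE 0.376, limma adjusted p = 0.0395). The main probe set gave the smallest of 6 differences: the probe sets ranged from 1.80 to 3.01, and 6 of 6 passed in the fit over all probe sets. Without the endothelial sham array the call was lost (1.34, limma adjusted p = 0.0642).

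Igfbp3, the main carrier of IGF in blood, stood at 9.13 and 8.73 on the traced and untraced TAC arrays and 10.99 and 10.35 on the sham arrays, against 11.03 (TAC) and 11.84 (sham) in endothelial cells. Its difference of -1.63 (SE 0.668, limma adjusted p = 0.163) did not pass, but with surgery as a block it did (limma adjusted p = 0.0127). Igfbp5 ranged from 10.82 to 11.88 on the fibroblast arrays and from 10.88 to 11.26 on the endothelial arrays, within the fibroblast range (0.33, limma adjusted p = 0.465). Igfbp7, which binds IGFs weakly and is abundant in vessels, stood at 13.99 to 14.26 in fibroblasts and at 13.91 and 13.60 in endothelial cells (0.38, limma adjusted p = 0.337). Its main probe set lay above 99.6% of the probe sets on every array.

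**Figure D2:**
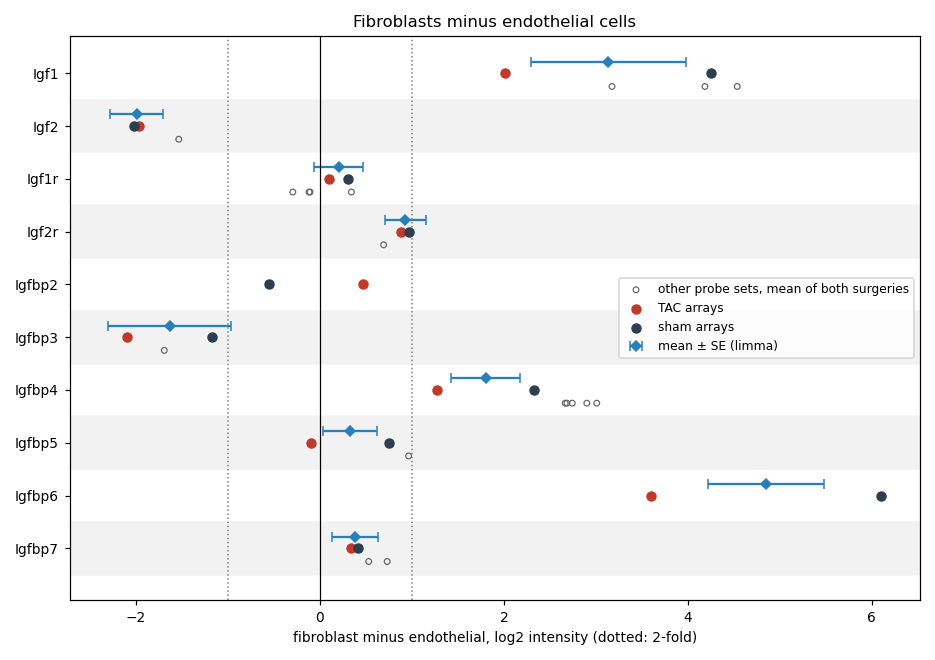
Fibroblast minus endothelial log2 intensity (x axis) for each IGF gene (y axis). Red and dark points are the TAC and sham arrays of the main probe set, blue diamonds the mean with its limma standard error, open circles the means of the other probe sets, and dotted lines a 2-fold difference. Igfbp6 lies farthest to the right (3.60 after TAC, 6.11 after sham) and Igf2 and Igfbp3 lie left of -1 at both surgeries.

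The second comparison asks how the IGF genes of fibroblasts differed between TAC and sham hearts. Igfbp3 stood 3.62-fold lower after TAC in traced and 3.07-fold lower in untraced fibroblasts, and Igfbp6 stood 1.80-fold and 2.30-fold lower. Igf1 differed little, and Igfbp2 stood higher from a dim level. With 1 array per group no difference by surgery has a test. A gene was counted when both populations differed at least 2-fold in the same direction. Of 9 detected members 1, Igfbp3, counted as lower, beside 1.79% of 11623 genes, and 0 as higher, beside 4.33%. The median of the members' mean differences was -0.39, against 0.05 over all genes. As a yardstick, the TAC differences of the 2 fibroblast populations differed from each other by a median of 0.19 over genes. The 95th percentile over genes was 0.67. This yardstick may miss variation between mice, because traced and untraced cells could have been sorted out of shared hearts.

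The TAC minus sham difference of Igfbp3 was -1.86 in traced and -1.62 in untraced fibroblasts, and 63 of 11623 genes had a lower mean. Both TAC arrays lie below both sham arrays. Its second probe set gave -1.72 and -1.40. Igfbp3 and Igf2 stood higher in endothelial cells, and endothelial markers moved with them: 9 of 9 detected endothelial markers were below 0 in fibroblast TAC minus sham (median -0.63). Of 9 mural markers 4 were at least 2-fold lower in both populations, beside 1.79% of all genes. Their mean differences were -2.06 for Vtn, -1.81 for Myh11, -1.61 for Abcc9 and -1.28 for Kcnj8. Another mural marker, Mcam, was at least 2-fold higher in both populations (2.34 in traced and 1.67 in untraced fibroblasts). Of the 9 mural mean differences 4 lay above 0 and 5 below. The leukocyte marker Cx3cr1 was also at least 2-fold lower in both populations (mean -1.74). Of 7 detected macrophage and leukocyte markers 3 had mean differences above 0 and 4 below. The part of these cell types in the Igfbp3 and Igfbp6 values was not tested. Igfbp6 had differences of -0.85 and -1.20, again with both TAC arrays below both sham arrays, and 270 genes had a lower mean. It has 1 probe set, and the larger value rests on the untraced TAC array, the array with low 18S RNA, whose part in the result was not tested. For Igfbp4 the main probe set was near 0 (-0.19 and -0.04), while all 6 of its probe sets were below 0 in both populations, down to -0.99 and -1.44. With arrays centred on their medians, the main probe set stood at -0.19 and 0.02.

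Igfbp5, a binding protein held in the extracellular matrix, differed by -0.37 and -0.57 on its main probe set and by -0.12 and 0.05 on the other. Igfbp7 differed by 0.25 and 0.21 on its main probe set. Igfbp2 stood at 6.70 and 6.49 on the traced and untraced TAC arrays against 5.80 and 5.53 on the sham arrays. These differences of 0.90 and 0.97 fall short of 2-fold and rest on levels below the array medians.

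Igf1 differed by 0.33 in traced and 0.09 in untraced fibroblasts, and its 4 probe sets were all above 0, at 0.30 to 0.58 and 0.09 to 0.75. Igf2 differed by -0.40 and -0.39, and by -0.41 and -0.61 on its second probe set. Igf1r differed by -0.25 and -0.60, and 4 of its 5 probe sets were below 0 in traced fibroblasts and 5 of 5 in untraced ones. Igf2r differed by 0.11 and 0.07. None of the ligand and receptor genes reached 2-fold in either fibroblast population on its main probe set.

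**Figure D3:**
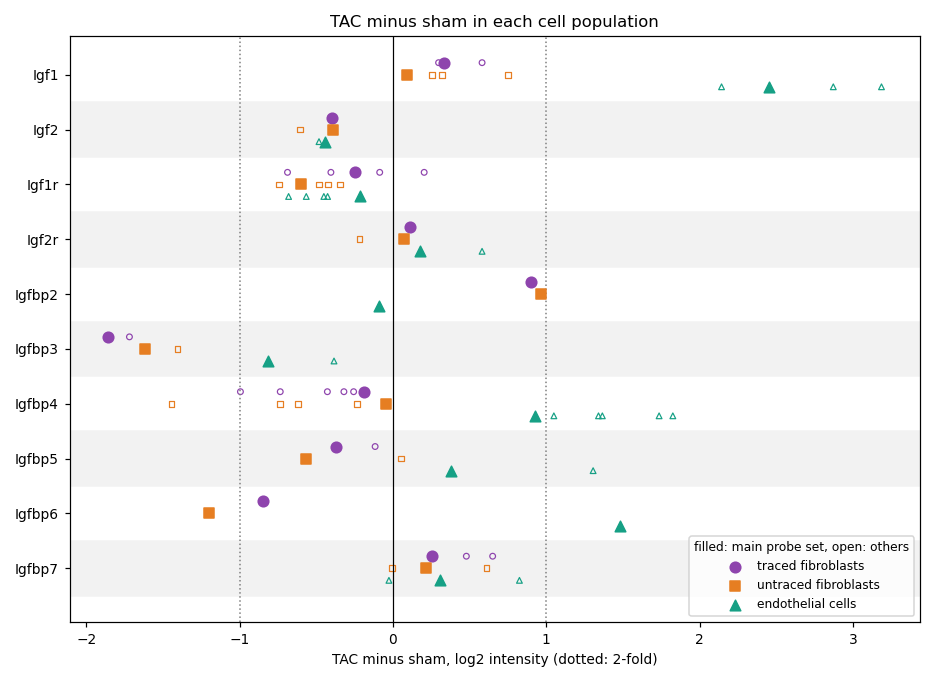
TAC minus sham log2 intensity (x axis) of each IGF gene (y axis) in traced fibroblasts (circles), untraced fibroblasts (squares) and endothelial cells (triangles). Filled symbols are the main probe set, open symbols the other probe sets, and dotted lines a 2-fold difference. Igfbp3 lies at -1.86 and -1.62 in fibroblasts, Igf1 at 2.45 in endothelial cells, and Igfbp6 lies on opposite sides of 0 in fibroblasts and endothelial cells.

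In endothelial cells the same comparison gave other leading genes. Igf1 stood 5.48-fold higher on the TAC array than on the sham array, Igfbp6 2.79-fold higher (over a sham level below the array median) and Igfbp4 1.90-fold higher, while Igfbp3 stood 1.76-fold lower. Of 9 detected members 2, Igf1 and Igfbp6, were at least 2-fold higher, beside 10.9% of 11157 genes, and 0 at least 2-fold lower, beside 1.83%. The median of the members was 0.31, against 0.18 over all genes.

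Igf1 differed by 2.45 on its main probe set and by 2.14 to 3.19 over its 4 probe sets, and 246 of 11157 genes had a higher difference. Igfbp6 differed by 1.48, and Igfbp4 by 0.93 on its main probe set and by 0.93 to 1.83 over 6 probe sets. Igfbp5 differed by 0.38 and 1.31 on its 2 probe sets. Igfbp3 differed by -0.81 and -0.38, Igf2 by -0.44 and -0.48, and Igf1r by -0.68 to -0.22 over 5 probe sets. Igf2r differed by 0.18, Igfbp7 by 0.31 and the dim Igfbp2 by -0.09.

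These endothelial differences run beside those of fibroblast genes, whose part in them was not tested. The Igf1 level of the endothelial TAC array was 24.7% of the mean TAC fibroblast level, against 5.23% at sham. For Igfbp4 these shares were 41.2% and 20.0%, and for Igfbp6 8.25% and 1.44%. The 11 fibroblast markers had shares of 9.70% to 64.5% at TAC (median 31.5%) and of 0.989% to 5.35% at sham (median 3.13%). Pdgfra, the platelet-derived growth factor receptor of fibroblasts, stood at 9.70% and 3.28%, the transcription factor gene Tcf21 at 9.94% and 1.18%, and Col1a1, the main fibrillar collagen gene, at 51.7% and 2.95%. All 3 members and 11 of 11 markers thus had a higher share after TAC. These 3 are the members at least 2-fold higher in fibroblasts at both surgeries, and their rise repeats the differences given above. From sham to TAC the share also rose for Igf1r (80.9% to 93.0%), Igf2r (51.1% to 54.2%), Igfbp3 (220% to 423%), Igfbp5 (58.6% to 104%) and Igfbp7 (74.9% to 78.9%). It fell for Igf2 (396% to 383%) and the dim Igfbp2 (147% to 72.2%). Of 7 detected macrophage and leukocyte markers 7 were also above 0 in endothelial TAC minus sham, with a median of 0.74, and their list summed to 2242 intensity units on the TAC array against 1379 on the sham array. The fibroblast arrays had sums of 1299 and 1793 after TAC and 1732 and 2590 at sham.

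**Figure D4:**
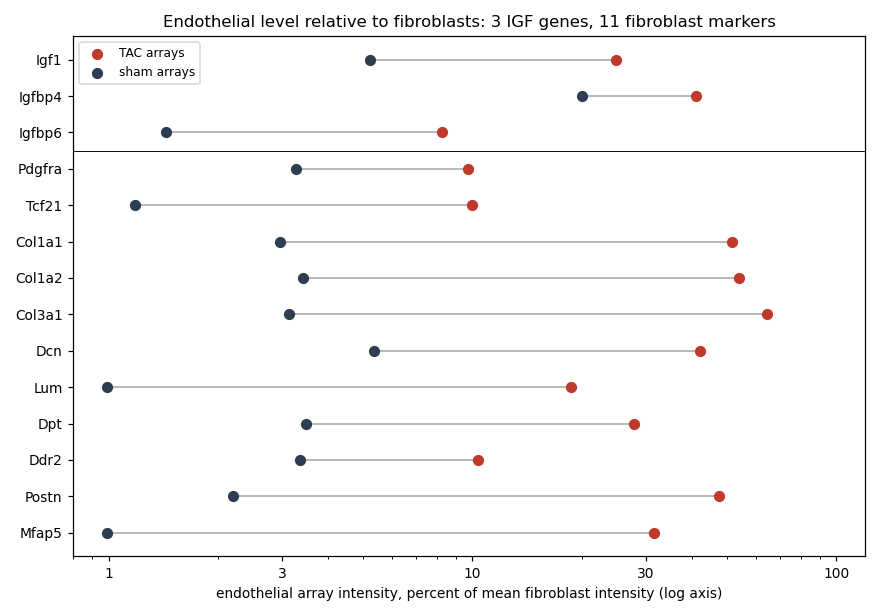
Intensity on the endothelial array as a percentage of the mean fibroblast intensity of the same surgery (x axis, logarithmic), for Igf1, Igfbp4 and Igfbp6 above the line and the 11 fibroblast markers below it. Red points are the TAC arrays and dark points the sham arrays. All 14 genes have a higher share after TAC, with Igf1 at 24.7% against 5.23% and Igfbp6 at 8.25% against 1.44%. Igf1, Igfbp4 and Igfbp6 are the members at least 2-fold higher in fibroblasts at both surgeries, and the other members are not shown.

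The third comparison sets traced against untraced fibroblasts. No member was at least 2-fold higher or lower at both surgeries, beside 0.0344% of 11623 genes in each direction. Igf2, Igfbp5 and Igfbp3 stood somewhat higher in traced cells at both surgeries. For Igf2 the traced minus untraced difference was 0.62 after TAC and 0.63 at sham, and 32 of 11623 genes, 0.275%, had both differences at least that high. Its second probe set gave 0.63 and 0.43. For Igfbp5 the differences were 0.68 and 0.49, and 0.30 and 0.47 on the other probe set. For Igfbp3 they were 0.40 and 0.64, and 0.29 and 0.61 on the other probe set.

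For scale, the 95th percentile of the absolute lineage difference over genes was 0.53 after TAC and 0.60 at sham. Macrophage and leukocyte markers also stood higher in traced cells, for 6 of 7 detected genes at each surgery (medians 0.50 and 0.38), and the endothelial markers did not (medians -0.44 and -0.08 over 9 detected genes). Their part in the lineage values was not tested. Igf1 (0.13 after TAC and -0.11 at sham), Igf2r (0.02 and -0.01), Igfbp4 (-0.04 and 0.11) and Igfbp7 (-0.02 and -0.06) were close to 0, Igf1r differed by 0.28 and -0.08, and Igfbp6 by -0.03 and -0.38.

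Some genes that set how much free IGF reaches a cell passed the test between cell types. Of 10 listed regulators outside the cell 5 were detected over the 6 arrays, and 2 were higher, beside 11.5% of all genes, and 1 lower in fibroblasts, beside 6.5%. Stc2, a stanniocalcin that inhibits PAPP-A, was 23.6-fold higher in fibroblasts (4.56, limma adjusted p = 0.0181). On the endothelial sham array Stc2 was below the array median (5.99), so this fold rests in part on a level not detected there. Pappa, the gene of the protease PAPP-A itself, was higher by 1.75 (limma adjusted p = 0.0236), with both endothelial arrays below their medians (5.34 and 5.83). Stc1, the other stanniocalcin gene, was lower in fibroblasts (-2.76, limma adjusted p = 0.0190), where all 4 arrays were below their medians. Pappa and Stc1 thus entered the test through the cell type where they are high, and their differences rest on a level not detected in the other. After TAC, the metalloprotease gene Adam12, whose product cuts Igfbp3 and Igfbp5 proteins, differed by 2.93 in traced and 2.60 in untraced fibroblasts and by 2.58 in endothelial cells. The serine protease gene Htra1 differed by -1.23 and -1.17 in fibroblasts and by 1.07 in endothelial cells. Stc2 (1.81) and Stc1 (1.06) also stood at least 2-fold higher on the endothelial TAC array, so 4 of 4 regulators detected there did, beside 10.9% of 11157 genes. Of the 4, Stc2 counted as detected there only through the TAC array where it is high (7.80, against 5.99 at sham). The other listed regulators were above the median of neither endothelial array and could not be counted, so the filter has a part in this count. The endothelial TAC array also carried fibroblast markers, whose part in these values was not tested. From sham to TAC the endothelial share of the fibroblast level rose for Stc2 (1.87% to 9.63%), Htra1 (12.7% to 61.1%) and Stc1 (469% to 949%). It fell for Adam12 (103% to 91.7%).

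Inside the cell, 24 of 28 listed genes of IGF and insulin signalling were detected, of which 4 were higher and 1 lower in fibroblasts, against the same 11.5% and 6.5% of all genes. The adaptor genes Irs1 (3.90, limma adjusted p = 0.00833) and Irs2 (2.59, limma adjusted p = 0.0182), which link the insulin and IGF1 receptors to phosphoinositide 3-kinase, were higher in fibroblasts. Grb14, an adaptor that dampens insulin signalling, was higher by 2.08 (limma adjusted p = 0.0306). Of the kinase subunits, Pik3r2 was higher by 2.42 (limma adjusted p = 0.0127) and Pik3cb lower in fibroblasts (-3.15, limma adjusted p = 0.00705). Irs1 and Grb14 were not above the median of either endothelial array and Pik3cb of no fibroblast array, so these 3 entered the test through the cell type where they are high. On the endothelial sham array Irs2 was also below the array median (6.32), so its difference rests in part on a level not detected there. The median of the list was 0.28, close to the 0.22 of all genes, and none of its members reached 2-fold by surgery in both fibroblast populations or in endothelial cells. Of 5 genes of growth hormone input, which drives Igf1 in liver, 2 were higher in fibroblasts, beside 11.5% of all genes: the receptor gene Ghr (1.90, limma adjusted p = 0.0171) and Stat5a (1.62, limma adjusted p = 0.0173). Of the IGF2 mRNA-binding protein genes 1 was detected, Igf2bp3, with a difference of 0.04 (limma adjusted p = 0.948). H19, the imprinted neighbour of Igf2, shares its probe set annotation with another gene and was not used.

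The genes with the most alike profiles were found by the root mean square difference between mean-centred log2 profiles over the 6 arrays, for the 5 detected members that span at least 2 log2 units. All share the split between cell types and the same arrays. Nearest to Igf1 were Pcolce (0.091) and Mmp14 (0.155), and nearest to Igfbp6 were Adgrd1 (0.150) and Spon1 (0.164). Nearest to Igf2 were Max (0.125) and Dlc1 (0.147), to Igfbp4 Cnrip1 (0.092) and Dagla (0.099), and to Igfbp3, less closely, Cbfa2t3 (0.221) and H2-Aa (0.283). Pcolce stood 2.27 higher on the endothelial TAC than on the endothelial sham array and 0.15 and 0.12 higher in traced and untraced fibroblasts. Spon1 differed by -1.12 and -1.06 in fibroblasts and by 1.08 in endothelial cells.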

How the data were processed

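Each array's deposited file column holds the intensity of 45101 probe sets on a linear scale, made by the authors with RMA, per the submitters' processing notes. RMA subtracts background, normalizes between arrays and summarises probes, and it pulls differences of dim probe sets towards 0. Its version is not given in the sources used here. Array medians lay between 106.6 and 115.2, and the number of arrays limits the precision. Log2 was taken with no further normalization, and 0 pairs of arrays were identical.

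Symbols were read from the platform's probe annotation and brought up to date through Entrez identifiers, of which the RefSeq table held 99.4%. A total of 34958 probe sets had exactly 1 symbol, 932 several, and 9211 were not listed. A gene counted as detected if at least 1 of the arrays compared had it over that array's median. The limma fit of the cell types (limma 3.58.1, R 4.3.3) was also run on simulated data. There the values varied independently on each array with no surgery difference, so that run does not show how often the fit errs here. The p-values of the fit cover no more than the spread among these arrays, which here is the difference between surgeries. All other comparisons set 1 array against 1, so they have no test. All 10 members are named. Genes of the IGF pathway lists are named when called or at least 2-fold different by surgery. Igf2bp3, the only detected gene of its list, and H19, which was not used, are named besides. Members and lists were chosen with earlier results of these data known. Alternatives were other probe set choices, filters, normalizations, thresholds and models, and leaving out each array; the fit over all probe sets was added after seeing the data.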

Additional observations from a re-analysis of the deposited data

Results flagged for a closer look

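For 4 members the traced and the untraced fibroblasts differed by surgery in the direction opposite to the endothelial cells, and these differences between responses were not tested, since each rests on single arrays. The mean fibroblast TAC minus sham difference minus the endothelial one was -2.51 for Igfbp6 (-0.85 and -1.20 in fibroblasts, 1.48 in endothelial cells). It was -1.05 for Igfbp4, -0.85 for Igfbp5 and 1.02 for the dim Igfbp2. For Igfbp4 all 6 probe sets lay below 0 in both fibroblast populations and above 0 in endothelial cells, but with arrays centred on their medians the main probe set stood at 0.02 in untraced fibroblasts. For Igfbp5 the second probe set lay at -0.12 and 0.05 in traced and untraced fibroblasts, so the opposition depends on the probe set. Igf1, whose fibroblast and endothelial differences share a sign, had a difference between responses of -2.24.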

How the results depend on the processing

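The direction of each of the 9 tested members' fibroblast minus endothelial difference held under all 15 settings, and Igfbp6 was called in 15, Igf2 and Igfbp4 in 14 each, Igf1 in 4 and Igfbp3 in 1. Settings that changed only the filter or the model, or widened the fit to all probe sets, kept each difference by construction and could not reverse a direction. The same holds for leaving out probe sets by their suffix, since 0 main probe sets of members carried those suffixes. With surgery as a block, 2 members were lower in fibroblasts (Igf2 and Igfbp3). Leaving out each array in turn gave 2 to 3 members higher in fibroblasts and 0 to 1 lower, with the fewest lower without the endothelial sham array, where a lone endothelial array is assumed to vary like the fibroblasts. Over all genes that fit called 685 higher and 472 lower, against 1415 and 797, while the surgery block called 2298 and 1114, and treating each array as a sample of its own 2211 and 1063. At 1.5-fold, 2 members (Igfbp3 and Igfbp6) were lower after TAC in both fibroblast populations, 1 (Igfbp3) was lower and 3 (Igf1, Igfbp4 and Igfbp6) were higher in endothelial cells after TAC, as 3 were when all probe sets were averaged, and 1 (Igf2) was higher in traced fibroblasts at both surgeries. Either fibroblast population alone gave 1 to 2 members at least 2-fold lower after TAC, the second being Igfbp6 in untraced cells. Of 200 member differences by surgery or lineage under 4 other probe set choices and normalizations, 197 moved by less than 0.325, the standard deviation over genes between the 2 fibroblast responses, and the other 3 (-0.52 and 1.37 for Igfbp4 by surgery in untraced fibroblasts and endothelial cells, and 0.84 for Igfbp5 in endothelial cells) came from averaging all probe sets. The 197 were in part fixed in advance. Leaving out probe sets by suffix could move none of the values, and averaging could not move the 2 members with 1 probe set. Centring could move values only a little, since array medians lay at log2 6.74 to 6.85. The limit of 0.325 may also leave out variation between mice. No paired analysis was possible because, for replicate numbers, each group has 1 array and the groups share only number 1. The surgery block above pairs the cell types by surgery instead, and beside Igfbp3 it added Igf1 (limma adjusted p = 0.00916).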
